A study of Mus musculus with 12 samples.

Results

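Tumours of the mouse pancreatic cancer line mT3-2D were compared between immunodeficient SCID hosts and immunocompetent wild-type (WT) hosts. The compared samples were all subcutaneous tumours of the series, 5 SCID and 5 WT, which are 10 of its 12 samples; the other two, RNA of the cultured line, entered no comparison and served only to set a background level. Total RNA of each whole tumour was counted with the NanoString nCounter system, in which a colour-coded probe for each transcript is counted directly without amplification, and the panel table holds 750 named mouse genes, mostly of the immune system. KPC, the model from which the line comes, is a genetically engineered mouse model of pancreatic cancer. The labels give no treatment, time after implantation, host strain, age or sex. Every tumour of both groups grew from the same line. Tumour titles share numbers within a host type (3 WT titles carry one number, and 2 pairs of SCID titles carry another each), and the labels do not say whether these tumours came from separate animals, so the p-values below measure only the spread between these samples.

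SCID mice lack mature T and B lymphocytes because an enzyme needed to rejoin broken DNA during antigen receptor assembly is defective. Their natural killer (NK) cells and myeloid cells still develop. T cells and NK cells are the main makers of interferon gamma. That cytokine binds its receptor on tumour and stromal cells, the kinases Jak1 and Jak2 start a signal to the nucleus, and this switches on Irf1 and a large set of genes: the chemokines that call in T cells, the peptide loading and MHC class I machinery by which cells show antigens to killer T cells, the class II genes through Ciita, and antiviral effectors. Levels are given below as the deposited log2 values, on which 1 unit is a doubling, always with the WT tumours in the order tumour 1, the mean of tumours 2 and 3, tumour 4 and tumour 5, and the SCID tumours in the order 1 to 5. A change is the SCID mean minus the WT mean, with its standard error (SE), and a gene is called when its limma p adjusted over 750 genes is below 0.05.

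WT tumours 2 and 3 were averaged and counted as 1 sample, because their counts differed by little more than counting noise (chi-square over its degrees of freedom 1.2, where the 19 remaining pairs within a host type gave 17.1 to 84.5). This left 4 WT samples against 5 SCID samples. The titles of WT tumours 2 and 3 carry different numbers, and the labels do not say why their counts are so alike. Title numbers form 2 series, and the smaller holds only WT tumour 2 and SCID tumour 5. Depth was 368925 to 558445 counts per tumour, recovered from the deposited values, and the 95th percentile of 14 T and B cell markers in the cultured line, 29.3 counts, was taken as background. Between 538 and 595 genes lay above it in a WT tumour and between 470 and 516 in a SCID tumour. A pair of tumours stood apart from their groups. WT tumour 1 correlated over all genes more closely with SCID tumour 5 (Pearson r = 0.966) than with any WT tumour (highest r = 0.953), whereas SCID tumour 5 was closest to SCID tumour 2 (r = 0.967). The summed level of 3 epithelial markers (Epcam, Cdh1 and Muc1) was 2684 units in WT tumour 1 and 9471 to 14105 in the other WT samples, and it was 1686 in SCID tumour 5 and 3764 to 9121 in the other SCID tumours. The sum of 5 fibroblast markers was highest in the same tumours of each host, with 41417 units in SCID tumour 5 against 15158 to 29615 in the other SCID tumours, but in WT tumour 1 (31697) it was hardly above that in WT tumour 5 (31068), against 14845 and 17147 in the remaining WT samples. The counts over all genes and over the lists are therefore also given without these 2 tumours. Of the lists with few calls, the other interleukins then had 2 genes lower and 1 higher, the Toll-like receptor and NF-kB list 4 lower, the integrins and the epithelial list 2 each, and the autophagy list and the Fc receptors 0.

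**Figure D1:**
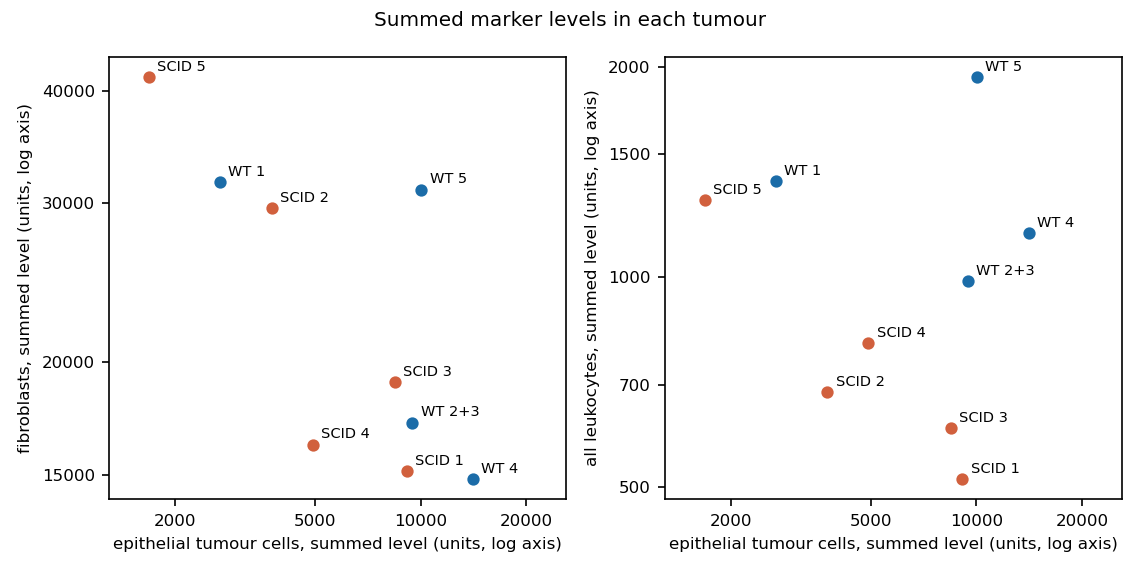
Summed linear level of the 3 epithelial markers (x axis, units, log scale) against that of 5 fibroblast markers (left) and 5 markers of all leukocytes (right; y axes, units, log scale), 1 point per tumour, blue for WT and orange for SCID, with WT tumours 2 and 3 as their mean. WT tumour 1 (2684) and SCID tumour 5 (1686) lie at the low epithelial end of their groups.

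On the deposited scale nearly all called differences ran one way. Of 750 genes 119 were called (15.9%), and 631 were not. Cd9 was the 1 called gene that was higher in SCID tumours (0.133%), and every other called gene was lower (15.7%). The median change over all genes was -0.33, and 614 of the 750 changes were negative. For 15.7% of the 750 genes every SCID value lay below every WT value, and 97 of these genes were called. In the other direction the groups failed to overlap for 2 genes (0.267%), Cd9 among them. The number called lower was 67 without WT tumour 5 and between 82 and 156 without any other one sample. Without WT tumour 1 and SCID tumour 5 together it was 189, with 6 genes higher. Scaling each sample by the median of its genes moved the median change to 0.28 and gave 37 lower and 49 higher genes, and TMM scaling moved it to -0.01 and gave 56 lower and 8 higher, so the statement that few genes rose holds for the deposited scale and not for scaling by the median. An exact permutation test over samples cannot give less than p = 0.0079 here; it called 0 genes after adjustment and left 215 genes at an unadjusted p under 0.05, against 238 by limma. In bulk RNA, fewer cells of a type and less RNA per cell cannot be told apart, and this holds for each gene below.

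**Figure D2:**
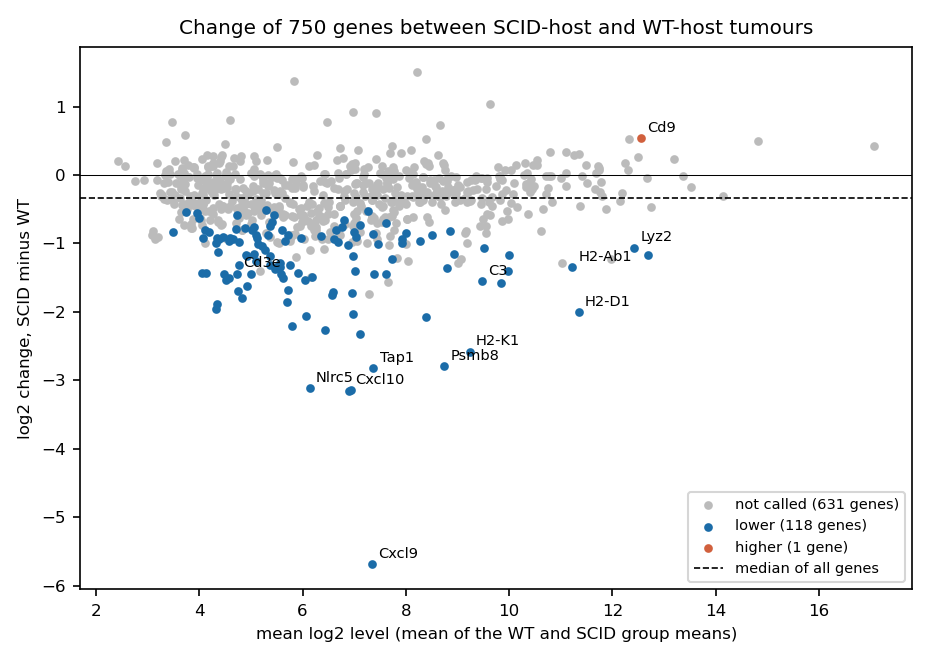
Log2 change (SCID minus WT, y axis) of each of 750 genes against its mean log2 level (x axis), with called genes in blue (lower) or orange (higher) and the rest in grey. Blue points reach down to Cxcl9 at -5.69, Cd9 is the one orange point, and the dashed line marks the median of all genes, -0.33.

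The steepest fall was in the chemokines that attract activated T cells through the receptor Cxcr3. Cxcl9 stood at 8.98, 10.18, 10 and 11.58 in the WT tumours and at 4.63, 3.89, 4.20, 4.65 and 5.09 in the SCID tumours. Every SCID value was at background and every WT value far above it, so the fall is given as a bound, at least 38.8-fold (change -5.69, SE 0.45, adjusted p = 0.000101). Cxcl10, a second ligand of the same receptor, was 7.61, 9.13, 7.89 and 9.30 in WT tumours against 5.02, 5.13, 5.37, 5.62 and 5.53 in SCID tumours. It stayed above background in all 5 SCID tumours while falling 8.86-fold with no overlap (change -3.15, SE 0.35, adjusted p = 0.000883). The third ligand, Cxcl11, was low everywhere, with 4.33, 5.67, 5.22 and 6.48 in WT tumours and no SCID value above 4.45 or below 3.35. WT tumour 1 lay inside the SCID range, and the call of Cxcl11 (change -1.31, adjusted p = 0.0485) was lost in 8 of the leave-one-out fits, those without WT tumour 3, 4 or 5, the averaged pair or SCID tumour 1, 2, 3 or 4, with adjusted p up to 0.125. Other alternatives lost it too, among them median (0.162) and TMM scaling (0.113), widely expressed genes as scale (0.068) and values raised to background (0.131). Cxcr3 itself was near background, at 4.79 to 5.39 in WT and 4.01 to 4.92 in SCID tumours, and was not called (change -0.63, adjusted p = 0.0789). It was called without SCID tumour 5 (0.0321). A block for the title series, fitted with WT tumours 2 and 3 as separate samples, also called it (0.0294).

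Other chemokines of lymphocytes fell with them. Ccl5, made by T and NK cells, fell 3.63-fold, from 5.99, 6.01, 6.56 and 7.96 to 3.92, 4.47, 5.37, 4.59 and 5.49 (adjusted p = 0.02). Ccl1, a ligand of Ccr8 made by activated T cells, fell at least 1.78-fold, from 5.30 to 6.39 in WT tumours to 3.69 to 4.69 in SCID tumours, all of which were at background (adjusted p = 0.00306). Of the receptors, Cxcr6, found on resident T cells and NKT cells, fell at least 1.31-fold (adjusted p = 0.0131), with 2 of 4 WT samples above background and no SCID tumour. With values raised to background its change was -0.56 and the call was lost (adjusted p = 0.256). Xcl1, the attractant of cross-presenting dendritic cells, fell 2.60-fold (adjusted p = 0.0191; 0.0703 under median scaling). In contrast Ccl17 and Ccl22, ligands of Ccr4 made by dendritic cells, were not called, with changes of -1.22 and -1.09 (adjusted p = 0.0769 and 0.152) and overlapping groups, although Ccl17 was called without the averaged pair (0.0479). In all, 10 of 28 genes of lymphocyte chemokines and their receptors were lower and none was higher, with a median change of -0.75 against -0.33 over all genes. The count was 6 without WT tumour 5, 15 without WT tumour 1 and SCID tumour 5, 6 after TMM scaling and 5 after scaling by the median, where the list's median was -0.15. Of 29 chemokine genes of myeloid cells 1 was called. Ccl8, a monocyte attractant, fell 2.99-fold (adjusted p = 0.0197), a call lost without WT tumour 5 or the averaged pair (adjusted p 0.0537 to 0.0636), or under median scaling (0.0590), and Ccl4 lay at background in both groups (adjusted p = 0.0503; 0.0449 without WT tumour 2 and 0.0120 without SCID tumour 4). That count was 0 without WT tumour 5, 2 without WT tumour 2 or 3, 4 without WT tumour 1, 3 without SCID tumour 4 and 5 without SCID tumour 5, with or without WT tumour 1.

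Along the interferon gamma pathway the receptor chain and kinases were not called, whereas Irf1 fell. Ifng was at background in both groups (3.72 to 4.74 in WT and 3.47 to 4.37 in SCID tumours), so no level of the cytokine could be compared. Its receptor chain Ifngr1 was 10.63, 11.18, 11.15 and 11.11 in WT and 10.85, 10.33, 10.90, 10.55 and 10.49 in SCID tumours, a change of -0.39 that was not called (SE 0.19, adjusted p = 0.175). The kinases Jak1 and Jak2 were not called either, with changes of -0.11 and 0.15 (SE 0.15 and 0.18, adjusted p = 0.663 and 0.624), though under median scaling Jak2 was called higher (0.75, adjusted p = 0.0248). Irf1, a transcription factor induced by interferon gamma, fell 2.10-fold, from 9.54, 9.90, 9.98 and 10.79 to 9.15, 8.83, 8.59, 9.06 and 9.27 (adjusted p = 0.0194), a call lost under TMM and median scaling. Tyk2, a kinase of type I interferon and interleukin receptors, fell 1.58-fold (adjusted p = 0.0339), and lost its call without WT tumour 4, the averaged pair or SCID tumour 1, 2, 3 or 4 (adjusted p 0.0505 to 0.0889) and under all 3 scalings. Stat2, a transcription factor downstream of type I interferon, and Socs1, a feedback inhibitor of cytokine signalling, had changes of -0.66 and -0.63 and were not called (adjusted p = 0.0907 and 0.179); Stat2 was called without WT tumour 1 (0.0266). Interferons, their receptors and the Jak, Stat and Irf genes together gave 3 of 28 lower (10.7%, against 15.7% of all genes), with a median of -0.40. Without WT tumour 1 that count was 6, and without SCID tumour 5 as well it was 7.

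The class I antigen presentation genes made the most complete block. Of 18 measured, 11 were lower and none higher (61.1%), with a median change of -1.26, and all 11 had groups without overlap. The count was 11 in each leave-one-out fit, 11 without WT tumour 1 and SCID tumour 5, 11 after TMM scaling and 8 after scaling by the median. Nlrc5, the transactivator that drives class I genes, led with 7.04, 7.99, 7.36 and 8.37 in WT tumours against 4.76, 4.93, 3.69, 4.71 and 4.8 in SCID tumours. It was above background in 1 of 5 SCID tumours and fell 8.64-fold (change -3.11, SE 0.33, adjusted p = 0.000772). The classical heavy chains H2-K1 and H2-D1, which carry the peptide, fell 5.97-fold and 3.99-fold. H2-K1 went from 9.64, 10.36, 10.61 and 11.49 to 7.61, 7.70, 8.11, 7.99 and 8.32 (adjusted p = 0.00111), and H2-D1 from 11.47, 12.26, 12.46 and 13.20 to 10.02, 10.36, 10.55, 10.23 and 10.60 (adjusted p = 0.0021). For both, the highest SCID tumour was tumour 5 and the lowest WT tumour was tumour 1, and a gap remained between them. The nonclassical chains H2-T23, a ligand of NK receptors, and H2-M3, which presents formylated peptides, fell 2.25-fold and 2.03-fold (adjusted p = 0.00782 and 0.00306), calls lost under median scaling.

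Genes that supply the peptides fell too. Tap1 and Tap2, which together form the peptide pump into the endoplasmic reticulum, fell 7.07-fold and 4.63-fold (adjusted p = 0.00208 and 0.000918). Tap1 was 7.70, 8.81, 8.51 and 10.10 in WT and 5.60, 5.64, 5.99, 5.86 and 6.69 in SCID tumours, and Tap2 was 6.37 to 7.51 in WT and 4.36 to 5.05 in SCID tumours. Tapbp, which docks class I at the pump, fell 2.56-fold (adjusted p = 0.00782), a call lost under median scaling. The 3 catalytic subunits of the immunoproteasome, the form of the proteasome that cuts peptides fit for class I, all fell. Psmb8 went from 9.26, 10, 10.10 and 11.18 to 6.40, 7.39, 7.33, 7.36 and 8.27, which is 6.90-fold (adjusted p = 0.00208). Psmb9 fell 4.08-fold (adjusted p = 0.00114) and Psmb10 2.65-fold (adjusted p = 0.00379), both without overlap between the groups.

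Promoter sequence of these genes was examined for a pair of letter patterns through which interferons are known to act: the gamma-activated site of interferon gamma responses (GAS, searched as TTCNNNGAA) and the interferon-stimulated response element bound by Irf family complexes (ISRE, searched as GAAANNGAAA). The windows are those of RefSeq (build GRCm38.p6), 250 bases before to 50 after each start, and both strands were searched. Of 32851 windows, 8.3% held the GAS letters and 3.44% the ISRE letters. The 100 windows of 86 genes called lower held them in 16% and 14%, and the 581 windows of 467 panel genes not called in 11.2% and 6.37%. These shares are a description, and a match is not evidence of binding. Shown here are windows of genes whose fall the report describes, Cxcl10 with an ISRE match, Psmb8 with a GAS match, and Gbp5 (an interferon-induced GTPase described below) with both. Capitals mark the matches, which do not overlap one another in these windows.
Cxcl10: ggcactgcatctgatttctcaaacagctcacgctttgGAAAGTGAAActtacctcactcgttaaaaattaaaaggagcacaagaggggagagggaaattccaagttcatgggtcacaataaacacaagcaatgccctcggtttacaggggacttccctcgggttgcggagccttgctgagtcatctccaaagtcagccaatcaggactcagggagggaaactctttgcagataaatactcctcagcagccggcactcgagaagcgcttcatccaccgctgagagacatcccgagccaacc
Psmb8: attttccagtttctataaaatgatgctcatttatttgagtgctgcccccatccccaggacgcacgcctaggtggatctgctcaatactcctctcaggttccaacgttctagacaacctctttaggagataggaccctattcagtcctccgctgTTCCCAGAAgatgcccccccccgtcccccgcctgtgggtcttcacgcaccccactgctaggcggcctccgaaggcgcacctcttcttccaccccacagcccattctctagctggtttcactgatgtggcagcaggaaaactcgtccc
Gbp5: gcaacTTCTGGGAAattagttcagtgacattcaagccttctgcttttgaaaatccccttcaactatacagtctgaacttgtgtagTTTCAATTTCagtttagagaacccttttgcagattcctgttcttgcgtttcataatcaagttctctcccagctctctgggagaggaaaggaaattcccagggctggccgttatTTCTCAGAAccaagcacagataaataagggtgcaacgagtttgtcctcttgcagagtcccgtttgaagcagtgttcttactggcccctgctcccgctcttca
The Cxcl10 window is chr5:92348840-92349139 on the minus strand, the Psmb8 window chr17:34197945-34198244 on the plus strand and the Gbp5 window chr3:142496684-142496983 on the plus strand. The window of Tap1, chr17:34187306-34187605 on the plus strand, held neither pattern, nor did those of Cxcl9, H2-K1 (2 windows), H2-D1, Psmb9 and Pdcd1, which says only that these letters are absent there. The Tap1 window overlaps that of Psmb9, chr17:34187281-34187580 on the minus strand, since both genes are read away from each other.

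Class II genes, which present antigen to CD4 T cells and are carried mainly by dendritic cells, macrophages and B cells, were lower in 5 of 13 and higher in none, with a median change of -1.01. Ciita, their master transactivator, fell 2.69-fold, from 6.58, 6.19, 6.45 and 7.31 to 4.70, 5.17, 5.01, 5.18 and 5.98 (adjusted p = 0.00927). H2-Ab1 and H2-Eb1, which encode the beta chains, were 11.83, 11.45, 11.86 and 12.47 and 10.75, 10.15, 10.61 and 11.19 in the WT tumours. In SCID tumours 1 to 4 they were 10.06 to 10.47 and 8.75 to 9.42, but tumour 5 reached 11.44 and 9.88, next to the lowest WT sample. They fell 2.55-fold and 2.65-fold (adjusted p = 0.0130 and 0.00637). H2-DMb1, part of the peptide editor, fell 2.72-fold (adjusted p = 0.00562). Cd74, the invariant chain, was 13 in SCID tumour 5 against 11.72 to 12.05 in the other SCID tumours and 12.61 to 13.98 in WT tumours. Its fall of 2.25-fold (adjusted p = 0.0346) was not called without WT tumour 4 or 5 or SCID tumour 1, 2, 3 or 4 (adjusted p 0.0672 to 0.106) nor after any of the 3 scalings. The alpha chain H2-Aa, with a change of -1.23, was not called (adjusted p = 0.0503), though it was in 8 of the alternatives, among them those without SCID tumour 5 (0.0127) and without the averaged pair (0.0281). Without SCID tumour 5, and also without WT tumour 1 in addition, 8 class II genes were called.

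**Figure D3:**
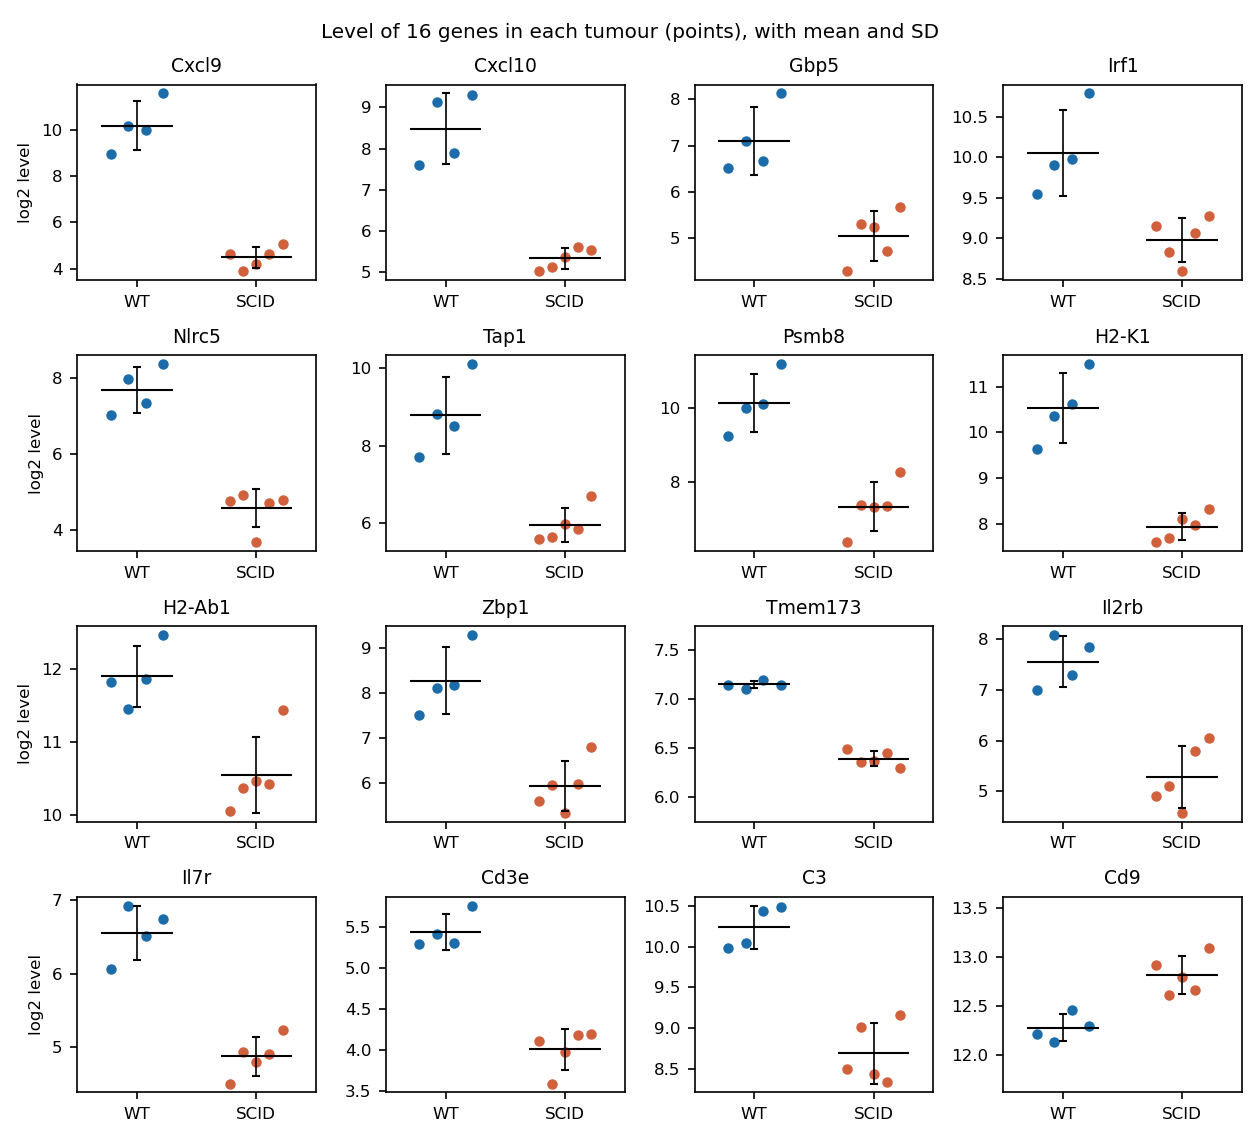
Log2 level (y axis) of 16 genes in each tumour, with 1 point per sample, blue for WT (n = 4, tumours 2 and 3 as their mean) and orange for SCID (n = 5), a line at the group mean and bars of 1 SD. Apart from Cd9, whose SCID points are above, each SCID point lies below each WT point, and the y axes differ between panels.

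Interferon-stimulated effector genes were lower in 10 of 27 and higher in none, with a median of -0.73. The count was 16 without WT tumour 1 and SCID tumour 5, 5 after TMM scaling and 3 after scaling by the median. The largest falls were in a pair of GTPases that act in defence against intracellular pathogens. Gbp5 fell 4.17-fold, from 6.51, 7.09, 6.67 and 8.13 to 4.28, 5.31, 5.24, 4.71 and 5.67 (adjusted p = 0.00508), and Irgm2 fell 3.32-fold, from 7.0 to 8.64 down to 5.53 to 6.47 (adjusted p = 0.00531). Oas2, which makes the second messenger that activates RNase L, was narrow in both groups, 6.27, 6.56, 6.24 and 6.45 against 4.70, 5.38, 4.97, 4.96 and 4.37, and fell 2.84-fold (adjusted p = 0.00151). Isg15, a ubiquitin-like modifier, fell 2.90-fold (adjusted p = 0.0149; 0.0512 without WT tumour 5), and Bst2, which tethers virus particles to the cell surface, 2.24-fold (adjusted p = 0.00744). Mx2, an antiviral GTPase, and Ido1, which breaks down tryptophan, fell at least 1.15-fold and 1.28-fold (adjusted p = 0.0149 and 0.0130), with all SCID values at background. Isg15, Bst2, Mx2 and Ido1 lost their calls under median scaling, and Mx2 and Ido1 also under TMM scaling and with values raised to background. Cmpk2, a mitochondrial nucleotide kinase induced by interferon that belonged to no list, fell 2.71-fold (adjusted p = 0.00531).

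In the list for sensing foreign or misplaced nucleic acid, 5 of 14 genes were lower, with a median of -0.64. The list also holds Nod1, Casp1 and signalling adaptors and kinases. All 14 changes were negative, as were 614 of 750 over all genes, and 7 were lower without WT tumour 1 and SCID tumour 5. The count was 2 after TMM scaling, where the list's median was -0.32. After scaling by the median it was also 2, with a list median of -0.04. The RNA sensors Ddx58 and Ifih1 were not called, with changes of -0.53 and -0.75 (adjusted p = 0.0843 and 0.0826). Zbp1, which senses Z-form nucleic acid and can start necroptosis, fell 5.03-fold, from 7.51, 8.10, 8.16 and 9.28 to 5.60, 5.95, 5.34, 5.98 and 6.80 (adjusted p = 0.00306). Casp1, the protease of the inflammasome, fell 3.37-fold, from 6.68 to 8.06 down to 5.24 to 6.08 (adjusted p = 0.00373). Tmem173, which encodes STING, the adaptor of cytosolic DNA sensing, was 7.15, 7.11, 7.20 and 7.15 in WT tumours and 6.49, 6.36, 6.37, 6.45 and 6.30 in SCID tumours. Its values barely varied within a group, the deviating tumours WT 1 and SCID 5 included, and its 1.69-fold fall was called (adjusted p = 0.00379), though not under TMM or median scaling. The same scalings ended the calls of Nod1, a sensor of bacterial peptidoglycan, and Ikbke, a kinase upstream of Irf3, which fell 1.79-fold and 1.76-fold (adjusted p = 0.0160 and 0.00948). The adaptor Mavs and the kinase Tbk1, through which RNA and DNA sensors signal, were not called, with changes of -0.11 and -0.14 (SE 0.16 and 0.14, adjusted p = 0.676 and 0.558).

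**Figure D4:**
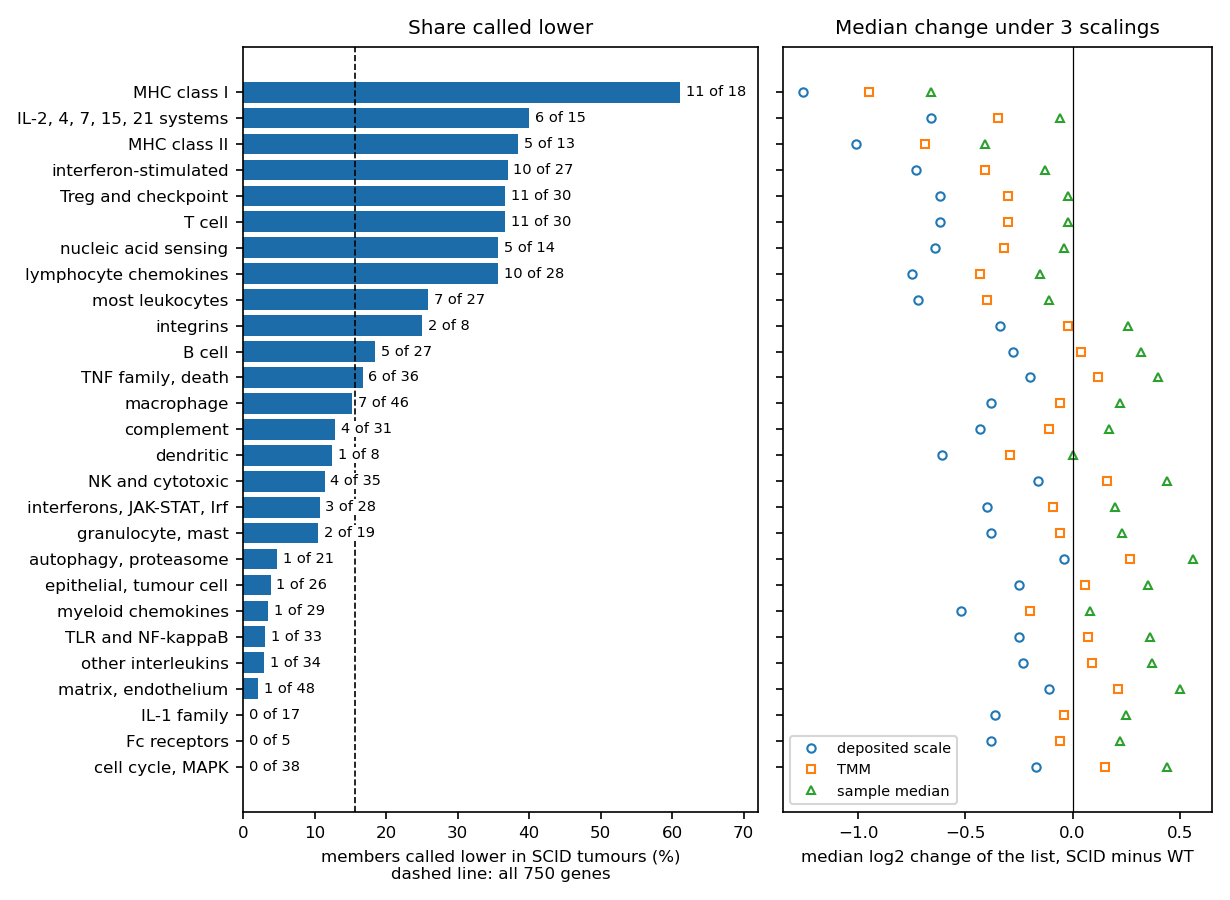
Left, percent of the measured genes of each of 27 lists called lower in SCID tumours (x axis), with the counts beside the bars and a dashed line at the 15.7% of all genes. Right, each list's median log2 change (x axis) on the deposited scale (circles), after TMM (squares) and after scaling by the sample median (triangles). Class I genes have the longest bar, 11 of 18, and a negative median on each of the 3 scales, whereas most lists in the lower part turn positive under scaling by the median.

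Several transcripts of the T cell receptor complex were low in WT tumours and at background in all SCID tumours. In the wider list, 9 of the 30 T cell genes were above background in every SCID tumour. Fyn, Nfatc1, Nfatc3 and Nfatc4 were among them, none of which is among the T cell markers summed below. Of those markers 1, Cd3d, was above background in any SCID tumour. Of 30 T cell genes 11 were lower and none higher, with a median change of -0.62, and the summed level of 9 T cell markers was 309 to 499 units in WT and 125 to 187 in SCID tumours. Cd3e, which transmits the signal of the T cell receptor, was 5.29, 5.42, 5.30 and 5.76 in WT tumours and 4.11, 3.59, 3.97, 4.18 and 4.19 in SCID tumours. All SCID tumours were at background and all WT tumours just above it, a fall of at least 1.45-fold (adjusted p = 0.00111). Cd3d, a further chain of the complex, was 5.97, 6.05, 6.04 and 6.74 in WT tumours and 5.11, 4.41, 4.47, 5.05 and 5.53 in SCID tumours, above background in 3 of them, and fell 2.44-fold (adjusted p = 0.0101; 0.0668 under median scaling). Cd3g, Lck (the kinase that starts receptor signalling) and Cd6 fell at least 1.77-fold, 1.60-fold and 1.34-fold (adjusted p = 0.0118, 0.00151 and 0.00114), and Cd247, the zeta chain, at least 1.21-fold (adjusted p = 0.002). The calls of Cd3g, Lck, Cd6 and Cd247 were lost when values were raised to background. Cd4 and Cd8a, the coreceptors of helper and killer cells, were called (adjusted p = 0.0271 and 0.0345), but Cd4 was at background in all tumours of both groups and Cd8a above it in 2 of 4 WT samples. Their calls were lost without WT tumour 5 or SCID tumour 1 or 2 for Cd4 (adjusted p 0.0501 to 0.0918) and without WT tumour 1 or 5, the averaged pair or SCID tumour 3 or 4 for Cd8a (adjusted p 0.0558 to 0.104). Both calls were also lost under TMM (0.112 and 0.197) and median scaling (0.414 and 0.476) and with values raised to background (0.511 and 0.456). The list's count was 7 without WT tumour 5, 13 without WT tumour 1 and SCID tumour 5, 6 after TMM scaling and 4 after scaling by the median, and 3 when values below background were raised to it.

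Genes of regulatory T cells and immune checkpoints were lower in 11 of 30, again with a median of -0.62. The count was 14 without WT tumour 1 and SCID tumour 5 and 3 after raising values to background. It was 5 after TMM scaling and 3 after scaling by the median, where the list's median was -0.02. Tnfrsf14 (HVEM), a receptor that binds the inhibitory partner Btla, fell 3.27-fold, from 7.33, 7.45, 7.07 and 7.94 to 5.40, 5.67, 5.72, 5.86 and 6.06 (adjusted p = 0.00111). Pdcd1lg2 (PD-L2) fell 2.81-fold, from 6.64, 7.08, 6.52 and 7.45 to 5.02, 4.93, 5.27, 5.76 and 6.16 (adjusted p = 0.00782). Both lay above background in every tumour. With values raised to background Pdcd1, Foxp3 and Il2ra were not called. Pdcd1, the receptor PD-1 on T cells, fell at least 1.31-fold, with 4.67 to 5.79 in WT and 2.69 to 3.92 in SCID tumours (adjusted p = 0.00332). The other PD-1 ligand, Cd274 (PD-L1), was 7.03, 7.58, 7.04 and 8.46 against 6.09, 6.24, 6.19, 7.41 and 6.89 and was not called (change -0.96, SE 0.36, adjusted p = 0.0959). SCID tumour 4 lay inside the WT range. Foxp3, the master factor of regulatory T cells, was called (adjusted p = 0.00379) but above background in 1 WT sample only, so no fold is given. Il2ra, the high-affinity chain of the IL-2 receptor, fell at least 1.77-fold (adjusted p = 0.02), a call lost under TMM and median scaling.

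Receptors for IL-2, IL-7 and IL-15, cytokines that keep lymphocytes alive, fell as well. In the list of these systems and of IL-4 and IL-21, 6 of 15 genes were lower and none was higher, with a median of -0.66, and 9 were lower without WT tumour 1 and SCID tumour 5. The count was 3 after TMM scaling, 2 lower and 2 higher when the median was the scale, and 3 when values below background were raised to it. Il2rb, the chain shared by IL-2 and IL-15 receptors, fell 4.84-fold, from 7.0, 8.09, 7.30 and 7.86 to 4.92, 5.10, 4.58, 5.79 and 6.06 (adjusted p = 0.00208). Il7r fell 3.21-fold, from 6.06, 6.92, 6.51 and 6.74 to 4.50, 4.93, 4.79, 4.91 and 5.23 (adjusted p = 0.00111). Il2rg, the chain common to the whole family, was 5.60 to 6.48 in WT tumours and between 4.20 and 4.58 in SCID tumours 1 to 4, but 5.80 in SCID tumour 5. It fell 2.50-fold (adjusted p = 0.02; 0.0694 without WT tumour 5 and 0.0668 under median scaling). Il21r fell 2.05-fold (adjusted p = 0.0201; 0.0518 without SCID tumour 3). The cytokine Il15 fell at least 1.27-fold and Il7 at least 1.16-fold (adjusted p = 0.0130 and 0.0265), and the call of Il7 was lost without WT tumour 4 or 5, the averaged pair or SCID tumour 1, 2 or 3 (adjusted p 0.0576 to 0.0726). Il21r, Il15 and Il7 lost their calls after TMM and median scaling and with raised values.

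B cell and NK cell genes gave less. All 5 B cell markers were at background in every tumour, with sums of 62 to 87 units in WT and 47 to 92 in SCID tumours. Of 27 B cell genes 5 were lower (18.5%, against 15.7% of all genes), with a median of -0.28. Btk, a kinase of B cells and myeloid cells, fell 1.90-fold, from 6.41, 6.28, 6.54 and 6.46 to 5.32, 5.38, 5.34, 5.81 and 5.64 (adjusted p = 0.00382). Cd27, a costimulatory receptor of T and B cells, was called (adjusted p = 0.00379) with all tumours at background, and Ms4a1 (CD20) was at background and not called (change -0.28, adjusted p = 0.509). That list's count was 2 without WT tumour 4 or 5 or SCID tumour 3, 3 without WT tumour 1 or SCID tumour 1 or 4, 8 without WT tumour 1 and SCID tumour 5, 1 after TMM scaling and 0 after median scaling, where Btk too lost its call (0.242). NK and cytotoxic genes were lower in 4 of 35 (11.4%), below the share of all genes, with a median of -0.16. The sum of 4 NK markers was 158 to 335 units in WT and 93 to 227 in SCID tumours. No gene of the list was called lower without WT tumour 5, the averaged pair or SCID tumour 2. Nor was any under TMM, median scaling or raised values, although 1 was called higher under median scaling. The count of lower genes was 1 without SCID tumour 1 or 4, and 2 without SCID tumour 3. Without WT tumour 1 and SCID tumour 5 together, 6 were lower and 3 higher. Klrk1 (NKG2D), an activating receptor, fell at least 1.77-fold (adjusted p = 0.0308), and Hcst, its signalling adaptor, fell 1.89-fold (adjusted p = 0.0325). Klrk1 was not called without WT tumour 5, the averaged pair or SCID tumour 2 or 3 (adjusted p 0.0566 to 0.0749), nor Hcst without WT tumour 5, the averaged pair or SCID tumour 1, 2 or 4 (adjusted p 0.0628 to 0.0937). Ncr1, the receptor that marks NK cells, was 5.29, 6.01, 4.94 and 6.08 in WT and 4.20, 6.92, 5.09, 4.81 and 6.69 in SCID tumours. The 2 highest values of all were SCID tumours 2 and 5, and Ncr1 was not called (change -0.04, SE 0.55, adjusted p = 0.975). The killing proteins granzyme B (Gzmb) and perforin (Prf1) were near background and not called, with changes of -0.32 and 0.80 (adjusted p = 0.624 and 0.322).

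Genes carried by most leukocytes were lower in 7 of 27 (25.9%, against 15.7% of all genes), with a median of -0.72. Ptprc (CD45), the surface phosphatase of all leukocytes, fell 2.00-fold, from 8.47, 8.36, 8.21 and 8.64 to 6.76, 7.43, 7.16, 7.69 and 8.07 (adjusted p = 0.0236), a call lost without WT tumour 5, the averaged pair or SCID tumour 3 (adjusted p 0.0511 to 0.0760). SCID tumour 5 was nearest to the WT tumours. Spn (CD43), a sialoglycoprotein of leukocytes, fell 2.55-fold, from 5.94, 6.16, 5.80 and 6.75 to 4.11, 4.89, 4.74, 5.14 and 5.19 (adjusted p = 0.00782). The list's count was 2 without WT tumour 5, 4 without SCID tumour 3, 13 without SCID tumour 5, 12 without that tumour and WT tumour 1, 3 after TMM scaling and 2 after scaling by the median. The sum of 5 markers of all leukocytes was 987 to 1936 units in WT and 513 to 1289 in SCID tumours. It moved the same way as the chemokine, class I, class II and interferon-stimulated genes above, and its part in those results was not tested.

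**Figure D5:**
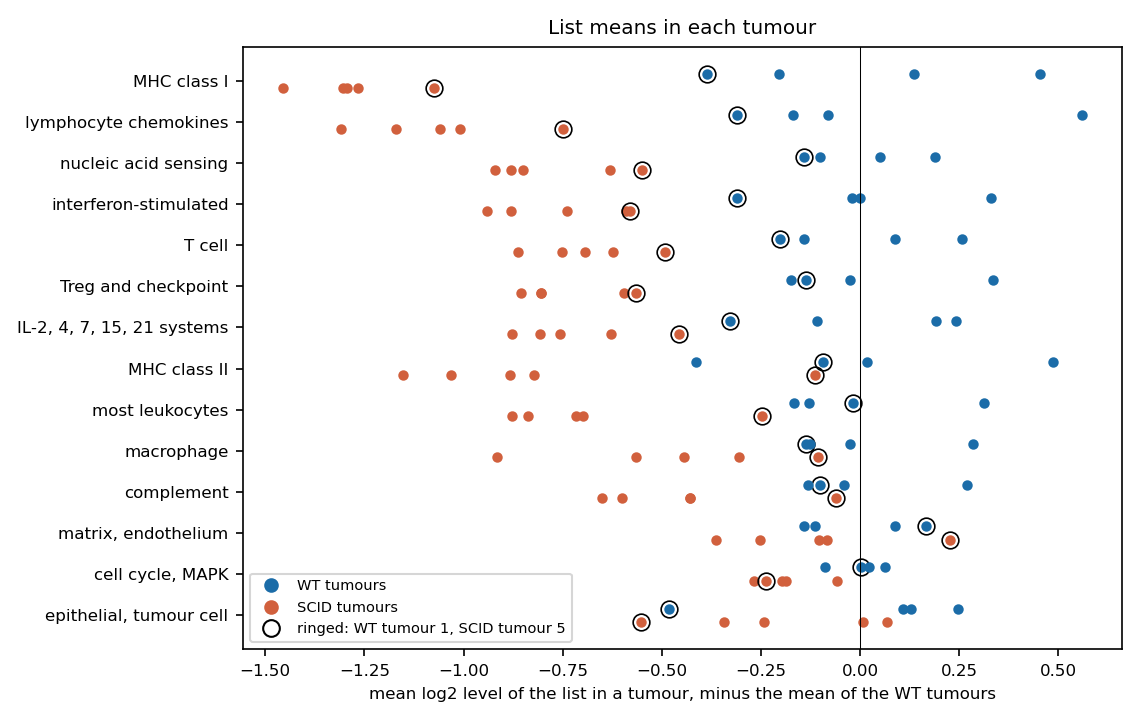
Mean log2 level of the genes of 14 lists in each tumour, given as the difference from the mean of the WT samples (x axis, log2 units), blue for WT (n = 4) and orange for SCID (n = 5), with WT tumour 1 and SCID tumour 5 ringed. SCID and WT points are apart for class I genes, lymphocyte chemokines and T cell genes and overlap for class II, macrophage, complement and matrix genes.

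Macrophage genes were lower in 7 of 46 (15.2%), a share close to that of all genes, with a median of -0.38. Csf2rb, the signalling chain of the GM-CSF receptor, fell 2.35-fold, from 8.21, 8.53, 8.2 and 8.45 to 6.36, 7.22, 7.17, 7.28 and 7.55 (adjusted p = 0.00637), and its ligand Csf2 fell 1.91-fold (adjusted p = 0.0446), a call lost without WT tumour 1, 4 or 5, the averaged pair or SCID tumour 2 or 4 (adjusted p 0.0657 to 0.0989). Lyz2, the lysozyme of macrophages and neutrophils, fell 2.08-fold, from 13.01, 13.02, 13.08 and 12.69 to 11.04, 12.37, 11.89, 11.96 and 12.20 (adjusted p = 0.02; 0.0511 without the averaged pair, and not called under TMM or median scaling). Cd84, an adhesion receptor of leukocytes, fell 2.01-fold (adjusted p = 0.00644). Csf2rb, Csf2 and Cd84 lost their calls under median scaling, and Csf2 also under TMM and with widely expressed genes as scale. Chil3 (Ym1), a marker of alternatively activated macrophages, was 5.54, 10.24, 8.77 and 9.45 in WT tumours and between 4.81 and 5.81 in SCID tumours. WT tumour 1 thus lay inside the SCID range while the other WT samples were far above it. Its 8.83-fold fall (SE 0.78 on the log2 scale, adjusted p = 0.0212) was not called without WT tumour 4 or 5 or the averaged pair (adjusted p 0.0512 to 0.0718). The general markers Cd68, a lysosomal protein of macrophages, and Itgam (CD11b) were not called, with changes of -0.26 and -0.45 (adjusted p = 0.515 and 0.135), and the sum of 6 macrophage and monocyte markers was 1781 to 2746 units in WT and 1456 to 2133 in SCID tumours. The list's count was 4 without WT tumour 4 or SCID tumour 4, 3 without WT tumour 5, 2 without the averaged pair, 11 without SCID tumour 5, 10 without that tumour and WT tumour 1, 3 after TMM scaling and 1 after scaling by the median.

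Dendritic cell and granulocyte genes gave few calls (12.5% and 10.5% lower, against 15.7% of all genes). Cd83, carried by mature dendritic cells, was the one dendritic gene called of 8 and fell 2.74-fold, from 7.70, 8.53, 7.93 and 8.27 to 6.59, 6.50, 5.66, 6.88 and 7.65 (adjusted p = 0.02). It was not called without WT tumour 5 or the averaged pair (adjusted p 0.0566 to 0.0635), nor under median scaling (0.0680), and 3 dendritic genes were called without SCID tumour 5, 4 without that tumour and WT tumour 1. The sum of 4 dendritic markers was 148 to 222 units in WT and 95 to 166 in SCID tumours. Itgax (CD11c) had a change of -0.75 (adjusted p = 0.0857; 0.0324 without SCID tumour 5), and Lamp3 was at background throughout (change 0.77, adjusted p = 0.0637), though called higher under TMM (0.0210) and median scaling (0.0102) and without WT tumour 2 (0.0193) or SCID tumour 2 (0.0463). Of 19 granulocyte and mast cell genes 2 were lower, Csf3r, the G-CSF receptor of neutrophils (1.75-fold, adjusted p = 0.0321), and Ncf4, a subunit of the oxidase that makes superoxide (1.88-fold, adjusted p = 0.0364). The sum of 3 neutrophil markers was 228 to 893 units in WT and at most 376 in SCID tumours. Csf3r lost its call without WT tumour 4 or 5, the averaged pair or SCID tumour 1 or 3 (adjusted p 0.0653 to 0.0918) and Ncf4 without WT tumour 1, 4 or 5 or any one of SCID tumours 1 to 4 (adjusted p 0.0535 to 0.113), and the count of the list ranged from 0 to 4 when one sample was left out (0 without WT tumour 5 or either of SCID tumours 1 and 3; 4 without WT tumour 1; 1 without WT tumour 4, the averaged pair, SCID tumour 2 or SCID tumour 4). Csf3r also lost its call under TMM and median scaling (0.206 and 0.579) and Ncf4 under all 3 scalings (0.0569 to 0.3), so that 0 genes of the list were called under TMM and under median scaling, while 5 were without WT tumour 1 and SCID tumour 5. None of 5 Fc receptor genes, which bind antibodies, was called by limma, and the permutation test called 0 genes of the whole panel. Each test had 1 gene of the list at an unadjusted p under 0.05, 1 gene was called without SCID tumour 5, and 1 gene had groups without overlap. That was Fcer1g, their shared signalling chain (change -0.61, SE 0.19, adjusted p = 0.0567; 0.0362 without SCID tumour 5), and the inhibitory receptor Fcgr2b had a change of -0.67 (adjusted p = 0.224).

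Complement genes, which coat and lyse cells, were lower in 4 of 31 (12.9%), with a median of -0.43. That share was below the 15.7% of all genes. C3, the central component, fell 2.92-fold, from 9.98, 10.04, 10.44 and 10.49 to 8.50, 9.02, 8.44, 8.34 and 9.16 (adjusted p = 0.00199), and its call held in each leave-one-out fit and under each of the 3 scalings. C3ar1, the receptor of its fragment C3a, fell 1.95-fold (adjusted p = 0.0130), and WT tumour 5, at 8.44, was the lowest WT sample for this gene, where the others were 8.85 to 8.88. That call was lost after TMM and median scaling. The count of the list was 2 without WT tumour 5, 7 without SCID tumour 5, 6 without that tumour and WT tumour 1, and 1 after TMM and after median scaling. In the TNF family, 6 of 36 genes were lower (16.7%), a share close to that of all genes. The family's median of -0.20 turned positive after TMM (0.12) and median scaling (0.40). Tnfrsf1b, the second TNF receptor, fell 1.92-fold, from 8.02, 8.83, 8.27 and 8.49 to 7.25, 7.45, 7.66, 7.61 and 7.31 (adjusted p = 0.00915), and Tnfsf13b (BAFF), the survival factor of B cells, was called (adjusted p = 0.0169; 0.0577 without WT tumour 5) at levels close to background. Both calls were lost after TMM and median scaling. The count was 1 without WT tumour 5, 3 without WT tumour 4 or SCID tumour 2, 9 without WT tumour 1 and SCID tumour 5, 1 after TMM scaling, and 0 lower and 2 higher after median scaling.

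Cytokine systems outside these gave almost no calls. None of 17 genes of the IL-1 family was called by limma, and the permutation test called 0 genes of the whole panel. Limma and permutation had 4 and 2 genes of the family at an unadjusted p under 0.05. Il18r1, a receptor chain for IL-18, and Il1rl1, the receptor of IL-33, had changes of -1.49 and -0.98 (adjusted p = 0.0567 and 0.0907). In the family 2 genes were called without WT tumour 1, 1 without SCID tumour 5 and 4 without both. Il18r1 and Il1rl1 were called without WT tumour 1 (0.00928 and 0.0495). They were also called with WT tumours 2 and 3 as separate samples (0.0294 and 0.0418). The block fits, which kept those tumours separate too, called both with the title series (0.0357 and 0.0315) or the title number as a random block (0.0354 and 0.0491). Of 34 other interleukin genes 1 was called, Il12rb2, a chain of the IL-12 receptor, at background in every tumour (adjusted p = 0.0492), and its call was lost in 9 leave-one-out fits (all but those without WT tumours 1 and 3, adjusted p 0.0596 to 0.141). The call of Il12rb2 was also lost under all 3 scalings (0.0752 to 0.486). Il24 was 4.17, 6.74, 6.13 and 6.43 in WT tumours and between 4.13 and 4.97 in SCID tumours, so that only WT tumour 1 lay inside the SCID range, and it was not called (change -1.40, adjusted p = 0.0639). It was called without WT tumour 1 (0.000802) and with WT tumours 2 and 3 as separate samples (0.0255). Block fits on those separate samples called it with the title series (0.0313) and with the title number as a random block (0.0304). Of 33 genes of Toll-like receptor and NF-kappaB signalling, Tirap, an adaptor of those receptors, was lower by 1.45-fold (adjusted p = 0.0423), and the NF-kappaB subunit Rel had groups without overlap but was not called (change -0.57, adjusted p = 0.0687). The call of Tirap was lost without WT tumour 4 or 5, the averaged pair or any one SCID tumour (adjusted p 0.0506 to 0.0988), and its change turned to 0.07 under median scaling. The list's count was 3 without SCID tumour 5 and 2 without WT tumour 1.

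On the deposited scale, genes of the tumour cells and of the stroma were mostly not called. Of 48 matrix and endothelial genes 1 was lower, Plau, the protease urokinase (1.76-fold, adjusted p = 0.0380), and that call was lost without WT tumour 1, 4 or 5, the averaged pair or SCID tumour 2, 3 or 4 (adjusted p 0.0511 to 0.119) and under all 3 scalings (0.0606 to 0.476). Under median scaling 0 of these genes were lower and 7 higher, and without WT tumour 1 and SCID tumour 5 4 were lower and 1 higher. Col1a1, the main fibrillar collagen, was 14.05, 13.43, 13.03 and 13.97 in WT and 12.97, 13.84, 13.44, 13 and 13.97 in SCID tumours, with the groups fully mixed (change -0.18, SE 0.29, adjusted p = 0.709). Without WT tumour 1, 2 genes of the list were called. The endothelial marker Pecam1 (CD31) had a change of -0.36 (adjusted p = 0.469), and Igf2r, a receptor that clears IGF-2, one of -0.62 (adjusted p = 0.102). Of 8 integrins 2 were lower: Itga1, a collagen receptor, was tight in both groups, 8.67, 9.0, 8.97 and 9.11 against 8.01, 7.97, 8.2, 8.03 and 8.09, and fell 1.84-fold (adjusted p = 0.00379, call lost under median scaling), while Itgb3 fell 1.66-fold (adjusted p = 0.0321), a call lost without WT tumour 1 or 5, the averaged pair or SCID tumour 1, 2 or 3 (adjusted p 0.0612 to 0.0843). The call of Itgb3 was also lost under all 3 scalings (0.0541 to 0.685).

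The epithelial genes Epcam and Cdh1 (E-cadherin) overlapped between the hosts. Epcam was 9.80, 11.92, 12.78 and 12.13 in WT and 11.52, 10.33, 11.74, 10.73 and 7.55 in SCID tumours, and its change of -1.29 (SE 0.85) was not called (adjusted p = 0.325), nor was the -0.45 of Cdh1 (adjusted p = 0.533). The lowest values of Epcam were in SCID tumour 5 and WT tumour 1, and without those it was called (-1.20, adjusted p = 0.0474). Of 26 genes of epithelium and tumour cells, Cd9 was the one that rose on the deposited scale, whereas 5 were higher under median scaling and 2 under TMM. This tetraspanin of cell membranes was 12.22, 12.14, 12.46 and 12.30 in WT and 12.92, 12.62, 12.80, 12.67 and 13.10 in SCID tumours, 1.46-fold higher without overlap (change 0.54, SE 0.16, adjusted p = 0.0429). That call was lost in 9 of the leave-one-out fits, all but those without WT tumour 2 or 3 (adjusted p 0.0513 to 0.101). Pla2g1b, a pancreatic phospholipase, was called lower at background in both groups (adjusted p = 0.0448) and lost its call in 8 leave-one-out fits (without WT tumour 1, 4 or 5, the averaged pair or SCID tumour 2, 3, 4 or 5, adjusted p 0.0600 to 0.105). The call of Pla2g1b was also lost under all 3 scalings (0.0891 to 0.876). Of 38 cell cycle and growth signalling genes none was called by limma, and the permutation test called 0 genes of the whole panel. Limma and permutation had 1 and 4 of the 38 at an unadjusted p under 0.05. By limma, 1 was called each without WT tumour 1 and without SCID tumour 5, and 3 without both. Under median scaling 4 were higher. Pik3cd, a lipid kinase of leukocytes, and Tfeb, a transcription factor for lysosomal genes, had changes of -0.76 and -0.70 (adjusted p = 0.164 and 0.0722); Pik3cd was called without SCID tumour 5 (0.0282) and Tfeb without WT tumour 1 (0.0321). Of 21 genes of autophagy, the proteasome and protein handling 1 was called, and none was called without WT tumour 1 or 5, the averaged pair or SCID tumour 1, 3, 4 or 5. Cd3eap, a subunit of RNA polymerase I, was not called (change -0.52, adjusted p = 0.0639).

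Of the 59 genes in no list, 2 were lower, Cmpk2 and Timd4, a receptor for dying cells, which was at background in both groups (adjusted p = 0.0448) and lost its call without WT tumour 3, 4 or 5, the averaged pair or SCID tumour 1, 3 or 4 (adjusted p 0.0582 to 0.128). The call of Timd4 was also lost under all 3 scalings (0.0717 to 0.943) and with values raised to background (0.511). Ambp and Abcb1a, chosen after their values were seen, were higher on average but not called on the deposited scale. Ambp, which encodes a plasma protease inhibitor, was 5.48, 8.65, 7.69 and 7.99 in WT tumours and 10.17, 8.91, 9.84, 8.25 and 7.66 in SCID tumours (change 1.51, SE 0.68, adjusted p = 0.153). The drug efflux pump Abcb1a was 8.95, 8.54 and 8.70 in the WT samples other than tumour 1, which had 10.26, and 9.73 to 10.56 in SCID tumours (change 1.04, SE 0.35, adjusted p = 0.0685). It was called higher in 7 alternatives, among them those without WT tumour 1 (1.43, adjusted p = 0.00426) and under TMM (1.36, 0.0321) and median scaling (1.65, 0.0140). Keeping WT tumours 2 and 3 as separate samples also gave a call (1.08, 0.0317). So did a title series block on those separate samples (1.08, 0.0414).

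The tumours of one host differed in level among the genes called lower. Of the genes called lower, 64 were called in every leave-one-out fit, and 31 of these also under all 3 scalings and with values raised to background. Among these 31 were Cxcl9, Cxcl10, Ccl1 and Ccl5 among chemokines, Nlrc5, Tap1, Tap2, Psmb8, Psmb9, Psmb10, H2-K1 and H2-D1 of the class I axis, Ciita, H2-Ab1, H2-Eb1 and H2-DMb1 of class II, Gbp5, Irgm2, Oas2, Cmpk2, Zbp1 and Casp1 among effectors and sensors, and Il2rb, Il7r, Cd3e, Spn, Tnfrsf14, Pdcd1lg2 and C3. Counted over these genes together, WT tumour 5 had the highest WT value for 26 genes and WT tumour 1 the lowest for 21, while SCID tumour 5 had the highest SCID value for 21 and SCID tumour 1 the lowest for 17. Every other gene called lower lost its call in at least 1 of these fits. The mean level of the 31 was 7.54, 8.06, 7.92 and 8.73 in the WT samples and 5.73, 5.95, 5.98, 6.10 and 6.44 in SCID tumours. WT tumour 1 and SCID tumour 5, the pair that was low in epithelial markers, were therefore the closest across hosts, at 7.54 against 6.44. The same ends held over all 750 genes, so this order is not particular to the 31. There the mean log2 level was lowest in WT tumour 1 (6.8) and SCID tumour 1 (6.36). It was highest in WT tumour 5 (7.13) and SCID tumour 5 (6.71).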

How the data were processed

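Total RNA of the tumours and of the cultured line was counted on the nCounter system, per the labels' protocols. The authors deposited log2 values per gene for every sample, and a series value table of the same values on a linear scale, which is a normalized signal. How they were normalized or corrected for background is not given in the sources used here. Every linear value was a whole count times 1 factor per sample (100% of values within 0.02 of a whole number; factors 0.922 to 1.35), which gave the depths; each tumour has no further replicate of its own, so precision rests on the number of tumours. Of 750 genes, 736 symbols matched current RefSeq symbols, 8 matched 1 synonym each and 6 matched none. All 10 tumour columns and both line columns were mapped by name, and 0 columns were left unmapped.

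From the deposited log2 values, limma 3.58.1 (R 4.3.3; lmFit and eBayes) was fitted to 4 WT samples, with WT tumours 2 and 3 averaged, and 5 SCID tumours, with Benjamini-Hochberg adjustment over 750 genes and a threshold of 0.05. Where every tumour of a group was at background, a fold is given as "at least", the other group's mean against background. Simulated data were 20 runs of 750 genes, 100 of them changed by 1 log2 unit and 100 by 2. There the fit recovered 72.3% of changes of 1 log2 unit and 97.1% of changes of 2, and 4.3% of its calls were false. These shares hold for the simulated data only. They do not give the false share of the calls reported above, whose number changed with the scaling. Named genes are the 15 largest falls, the called rises, the 2 members of each list with the smallest p, a set of lineage and reference genes (of which B2m is not analysed here), called genes in no list, and further members of the chemokine, interferon, presentation, sensing, T cell and cytokine lists that were chosen for their roles after values were seen. The 27 lists and these members were chosen with earlier results of these data known. Some genes that the rule names are not reported here. Alternatives changed the scaling, the filter on low values, the treatment of tumours 2 and 3, the block and the test, and left out each sample in turn.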

Additional observations from a re-analysis of the deposited data

Results flagged for a closer look

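Some tumours lay far from the others of their group for a gene named above, by the ratio of the gap to the group's range. Chance alone gives this in about 1 in 20 groups tested. Many genes were searched in both hosts, so the cases below may be no more than chance gives. WT tumour 1 was the lowest WT sample for Ifngr1 (10.63, nearest other 11.11), Ccl8 (9.78, nearest 10.82) and Cdh1 (10.35, nearest 11.90), and WT tumour 5 was the lowest for C3ar1 (8.44, nearest 8.85) and the highest for Cd3d (6.74, nearest 6.05). Among SCID tumours, tumour 1 was the lowest for Csf2 (5.16, nearest 6.19), Il12rb2 (2.43, nearest 3.09) and Plau (7.74, nearest 8.43), tumour 2 for Cxcl11 (3.35, nearest 4.18) and tumour 3 for Nlrc5 (3.69, nearest 4.71). SCID tumour 5 was the highest for Cd74 (13, nearest 12.05) and Il2rg (5.80, nearest 4.58).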

How the results depend on the processing

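The counts of genes called lower and higher became 37 and 49 with each sample scaled by its median, 56 and 8 after TMM, 76 and 1 with values raised to background, and 189 and 6 without WT tumour 1 and SCID tumour 5 (an alternative chosen after seeing the data). The causes of these shifts were not tested. The exact permutation test called 0 and 0. Leaving out one sample gave 67 to 156 lower and 0 to 3 higher. With WT tumours 2 and 3 apart the counts were 155 and 2, with a block for the 2 series of title numbers 149 and 2, within the larger title series alone 162 and 3, and with the title number as a random block 140 and 2. Scaling by widely expressed genes, the filter, a variance trend, the value table and log2 of the value plus 10 kept the lower count within 1.5 times of the reported one and 1 gene higher. The replicate block gave 160 and 1. Each block fit counted WT tumours 2 and 3 as separate samples, which without a block gave 155 and 2. The labels do not say what the replicate numbers stand for. Same-numbered tumours had deviations correlated from -0.41 to 0.24, which cannot show whether they share anything beyond the number.

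Under median scaling these changes turned positive: Ifng 0.19, Ifngr1 0.21, Jak1 0.49, Mavs 0.50, Tbk1 0.47, Ms4a1 0.32, Ncr1 0.56, Gzmb 0.28, Cd68 0.34, Itgam 0.16, Tirap 0.07, Rel 0.03, Col1a1 0.43, Pecam1 0.24, Cdh1 0.15, Muc1 0.13, Pla2g1b 0.06 and Cd3eap 0.08. Under TMM the positive ones were Jak1 0.21, Mavs 0.21, Tbk1 0.18, Ms4a1 0.04, Ncr1 0.28, Cd68 0.06 and Col1a1 0.14. Ncr1 was also 0.04 with widely expressed genes as scale, 0.12 with raised values and 0.01 with the value plus 10, and -0.38 to 0.30 without one sample. Gzmb was -0.61 to 0.08 without one sample, and Lamp3 turned to -0.10 with raised values. Of the genes called lower on the deposited scale, 37 were still called lower under median scaling and 112 were still negative; under TMM 56 were still called and none had turned positive.

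Tests of counts were not run, because the deposited values are treated as a normalized signal. The design has 4 against 5 samples, and genes near 29.3 counts have only a bound. The smaller title series holds 1 tumour of each host, WT tumour 2 and SCID tumour 5. Leaving out SCID tumour 5 therefore leaves no SCID tumour of that series.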
